A study of Mus musculus with 2 samples.

Results

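Accessible chromatin was examined at 9 genes of the JAK-STAT pathway in colonic macrophages: the kinase genes Jak1 and Jak2, the transcription factor genes Stat2, Stat3, Stat5a, Stat5b and Stat6, and the inhibitor genes Socs1 and Socs3. Peaks were taken from each library's ATAC-seq list when they overlapped the RefSeq span of a gene or the 10 kb on either side. This gave 113 of 128129 Tle4cKO peaks and 124 of 128737 WT peaks, with peaks that lie in the windows of neighbouring genes counted a single time. ATAC-seq marks open DNA by the insertion of sequencing adapters with the Tn5 transposase. The Tle4cKO library came from Tle4f/f Lyz2-Cre mice, in which a Cre recombinase expressed from the lysozyme 2 gene deletes floxed Tle4 in myeloid cells. The WT library came from mice that carry Lyz2-Cre and no floxed Tle4 allele according to their genotype label. All mice were male C57BL/6 animals aged 18.9 weeks. Each library pooled the cells of 2 mice, sorted side by side as CD64-positive, Ly6C-low cells without Siglec-F. There was 1 library per genotype, so the values below carry no replicate error, no test between genotypes was possible, and every interval covers counting error only.

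JAK kinases sit on the intracellular part of cytokine receptors. When a cytokine binds, they phosphorylate the receptor and then the STAT proteins, which pair up, enter the nucleus and bind DNA. SOCS proteins are made in response to STATs and switch the receptors off again. In macrophages STAT3 acts downstream of IL-10 and IL-6, STAT6 downstream of IL-4 and IL-13, STAT5 downstream of GM-CSF, and STAT2 acts in the type I interferon response. TLE4 is a Groucho-type corepressor that binds no DNA itself and is recruited by other transcription factors.

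Motifs of STAT and interferon-response factors occurred just before 3 of the start sites, and the windows that hold them are shown because they lie under the start-site peaks of both inhibitor genes and of Stat2. The motifs searched, on both strands, were the gamma-activated sequence TTCNNNGAA bound by STAT dimers, its longer-spaced form TTCNNNNGAA favoured by STAT6, and GAAANNGAAA, the core of the interferon-stimulated response element. The window was the 250 bases before each start in the RefSeq table (GRCm38.p6, the assembly behind mm10), written 5′ to 3′ on the gene's strand, with matches in capitals. The window of Socs3 is chr11:117969367-117969616 and that of Socs1 is chr16:10785537-10785786, both on the minus strand. For Stat2 a stretch of 30 bases is given, chr10:128270272-128270301 on the plus strand.
Socs3: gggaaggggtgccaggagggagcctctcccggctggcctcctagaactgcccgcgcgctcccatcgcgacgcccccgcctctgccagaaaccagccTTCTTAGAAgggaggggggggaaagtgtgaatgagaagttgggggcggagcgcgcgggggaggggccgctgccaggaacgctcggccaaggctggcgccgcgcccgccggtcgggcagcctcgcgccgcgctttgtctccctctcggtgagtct
Socs1: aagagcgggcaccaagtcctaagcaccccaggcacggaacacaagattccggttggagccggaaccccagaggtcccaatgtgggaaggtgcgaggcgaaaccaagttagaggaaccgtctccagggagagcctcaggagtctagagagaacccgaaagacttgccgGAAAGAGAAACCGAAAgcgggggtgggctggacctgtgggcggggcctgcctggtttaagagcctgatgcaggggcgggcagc
Stat2: ctggTTTCAGTTTCctTTCCCTAGAActca

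The Socs3 window held a single TTCNNNGAA match, at positions -154 to -146 relative to the start. The Socs1 window held 2 overlapping GAAANNGAAA matches. The Stat2 stretch held a GAAANNGAAA match on the other strand, 2 bases before a TTCNNNNGAA match. All 5 matches lay inside start-site peaks of both lists, between 227 and 350 bp from the summit in Tle4cKO and between 249 and 305 bp in WT. Among all 32851 start windows of the table, 7.02% held TTCNNNGAA, 5.85% held TTCNNNNGAA and 2.98% held GAAANNGAAA. Of the 11 windows of the 9 genes, these motifs occurred in 1, 1 and 2. TGTGGT, the core bound by RUNX factors, which recruit TLE proteins, was found at Stat2 and Stat6, that is in 2 of the 11 windows against 14.0% of all windows. CTTTGA, the core bound by TCF/LEF factors, which also recruit TLE proteins, was found in 1 of the 11 windows, at Stat5a, against 13.8% of all windows. A match describes letters and does not show that a factor binds there.

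The libraries differed in signal overall. The pileup, the deposited height of a peak at its summit, had a median of 20 in Tle4cKO and 28 in WT, and no scaling between libraries is recorded. All 8 macrophage marker genes examined, among them Csf1r, Cx3cr1 and Fcgr1, which encodes CD64, had a peak within 1000 bp of a gene end in both lists, with summed highest pileups of 870 in Tle4cKO and 1096 in WT. Of 21 markers of eosinophils, monocytes, neutrophils, T cells, B cells, epithelium and fibroblasts, 15 had such a peak in Tle4cKO and 18 in WT, with summed highest pileups of 635 and 1103. Epx, Krt20 and Dcn had none in either list. Ccr2, Ly6g and Lck had such a peak in WT alone, at 79, 12 and 23. Among the others were Cd4, with 118 in Tle4cKO and 144 in WT, Vil1, with 92 and 119, Cxcr2, with 75 and 94, and Cd79a, with 71 and 153. Siglecf, whose product the sort selected against, had 30 in Tle4cKO and 101 in WT. The part of other cells in the values below was not tested. At Tle4 itself 14 Tle4cKO and 22 WT peaks lay in the same kind of window, and the labels do not say which part of the gene was removed. A lower pileup in a bulk library can come from fewer cells with the region open or from less open DNA per cell, and these cannot be told apart.

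Across the 9 genes most accessible regions were present in both lists. Tle4cKO-only peaks, those overlapping no WT peak, numbered 18 of 113 (15.9%, 95% Wilson interval 10.3% to 23.8%), against 23.5% of all Tle4cKO peaks. WT-only peaks numbered 29 of 124 (23.4%, 16.8% to 31.6%), against 27.1% of all WT peaks. Peaks at these genes were stronger than most, and peaks of the same pileup classes in the whole lists, defined below, would give shares of 13.3% in Tle4cKO and 20.9% in WT. Both the whole-list shares and these lay within the counting intervals. Summed over the windows, peaks covered 85338 bp in Tle4cKO and 100270 bp in WT, and their median width was 669 bp and 721.5 bp.

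Peaks found in a single list were weak at these genes, as they were throughout. Those of Tle4cKO ranged from a pileup of 8 to 20 with a median of 12, and those of WT from 8 to 73 with a median of 13, against medians of 10 and 12 in the whole lists. Each list was divided at its quartiles of pileup into 4 classes. In the lowest class, 4 of 7 Tle4cKO peaks and 16 of 19 WT peaks were in that list alone (57.1% and 84.2%, against 74.9% and 74.3% of all such peaks). In the second class the counts were 13 of 33 and 9 of 32 (39.4% and 28.1%, against 25.9% and 29.1%). In the third they were 1 of 34 and 2 of 31 (2.94% and 6.45%, against 3.22% and 7.44%). In the highest class 0 of 39 Tle4cKO peaks were Tle4cKO-only, where a limit of 3 peaks allows a share of up to 7.69%, against 0.313% of all such peaks. There 2 of 42 WT peaks were WT-only (4.76%, 1.32% to 15.8%), against 0.518% of all such peaks. Both of these lay in Stat3.

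Every one of the 9 genes had a strong paired peak at a start site in both libraries, a pair being 2 peaks that are each other's highest overlapping partner. At Jak1 the start-site pileup was 177 in Tle4cKO and 199 in WT, and at Jak2 it was 203 and 234. At Stat2 it was 161 in Tle4cKO and 181 in WT, at Stat3 191 and 237, at Stat5a 138 and 176, at Stat5b 95 and 125, and at Stat6 132 and 163. At Socs1 it was 169 in Tle4cKO and 214 in WT, and at Socs3 173 and 198. The Tle4cKO value was lower at each of the 9 genes, in the direction of 90.8% of all 92328 pairs. The ratio of Tle4cKO to WT pileup ran from 0.760 at Stat5b to 0.890 at Stat2. Over all pairs the ratio varied with peak height, so each ratio was divided by the median ratio of pairs of like summed pileup. On that relative scale the log2 values ran from -0.11 at Socs1 to 0.11 at Stat2, and the exact 95% interval of each of these 9 ratios included the median ratio of pairs of like pileup.

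**Figure D1:**
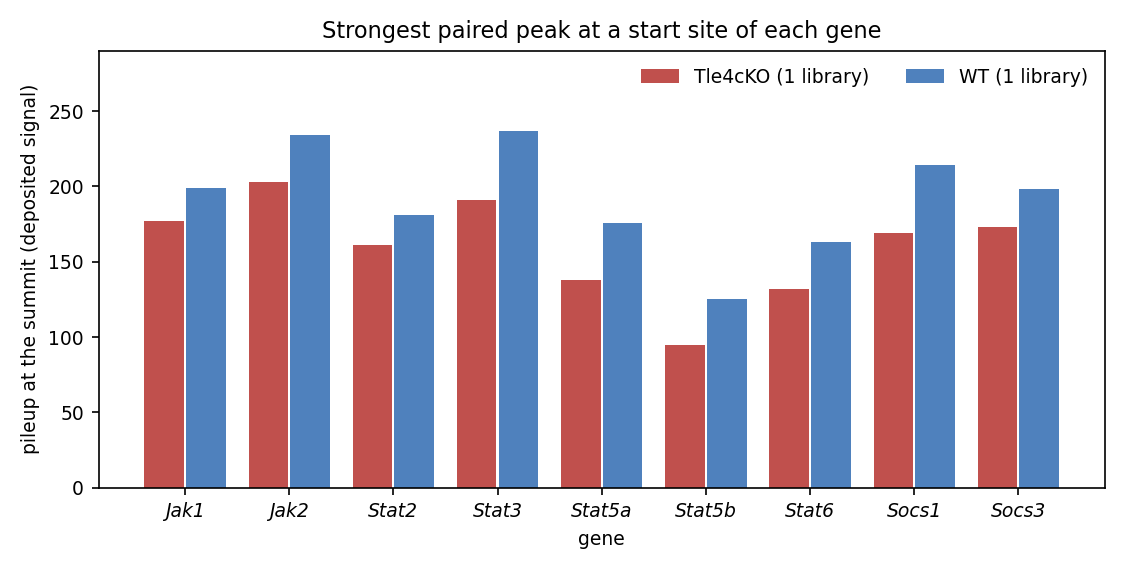
Pileup at the summit (deposited signal, no unit) of the strongest paired peak at a start site of each of the 9 genes, with Tle4cKO left of WT and 1 library per bar. Values lie between 95 and 203 in Tle4cKO and between 125 and 237 in WT, and the Tle4cKO bar is the lower at each gene.

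The shape of the start-site peaks was similar in both libraries, with exceptions in where borders and summits were placed. The broadest was that of Stat6, 2695 bp wide in Tle4cKO and 2721 bp in WT, and that of Socs1 was 2429 bp and 2414 bp wide. Summits lay 1 bp apart at Jak1, 11 bp at Stat2, 20 bp at Stat3, 22 bp at Socs1 and 25 bp at Jak2. They lay 53 bp apart at Socs3, 75 bp at Stat5b and 78 bp at Stat5a. At Stat6 the summit lay at 179 bp relative to the start in Tle4cKO and at -208 bp, that is upstream, in WT, a distance of 387 bp within a single broad peak. Around the Stat5a start the lists cut the same open stretch differently. Tle4cKO had a peak of 57 at 100858538 to 100859579 on chromosome 11 followed by the peak of 138, up to 100861991. WT had the peak of 176 from 100858575 to 100861106 followed by a peak of 119 up to 100862033. Likewise a WT peak of 90 inside the first part of Jak2, 1597 bp wide, faced 2 Tle4cKO peaks of 76 and 60.

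Over all 92 pairs at the 9 genes, heights, widths and summits differed between the libraries about as much as they did over all pairs. The median ratio of Tle4cKO to WT pileup was 0.757, against 0.741 over all pairs, and the median relative log2 ratio was 0.00 in both cases. The Tle4cKO peak was narrower in 62 of 92 pairs (67.4%, against 69.5% of all pairs), with a median width difference, Tle4cKO minus WT, of -63 bp, against -61 bp. Summits lay within 100 bp of each other in 63 of 92 pairs (68.5%, against 67.3%), and the median distance was 50.5 bp, against 44 bp. By role, the median relative log2 ratio was 0.04 over 34 pairs of the JAK genes, -0.04 over 47 pairs of the STAT genes and -0.03 over 11 pairs of the SOCS genes.

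A pair was called when its relative ratio reached 1.5-fold. Of the 92 pairs, 5 were called higher in Tle4cKO (5.43%, against 3.55% of all pairs) and 2 lower (2.17%, against 3.82% of all pairs). With a lower threshold of 0.32 on the relative log2 scale, 13 were higher (14.1%, against 12.4% of all pairs) and 10 lower (10.9%, against 13.0% of all pairs). All 7 called pairs were weak. They were among the 37 pairs below the median summed pileup of all pairs, of which 12 lay below the first quartile and 25 above it. Of the 12, 2 were called, and of the 25, 5 were called. The shares past 1.5-fold over all pairs in those classes were 15.3% and 11.5%. None of the 55 stronger pairs was called, where the shares over all pairs were 2.60% in the third class and 0.108% in the highest. None of the 26 in the highest passed the lower threshold, against 2.76% of all pairs of that class.

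**Figure D2:**
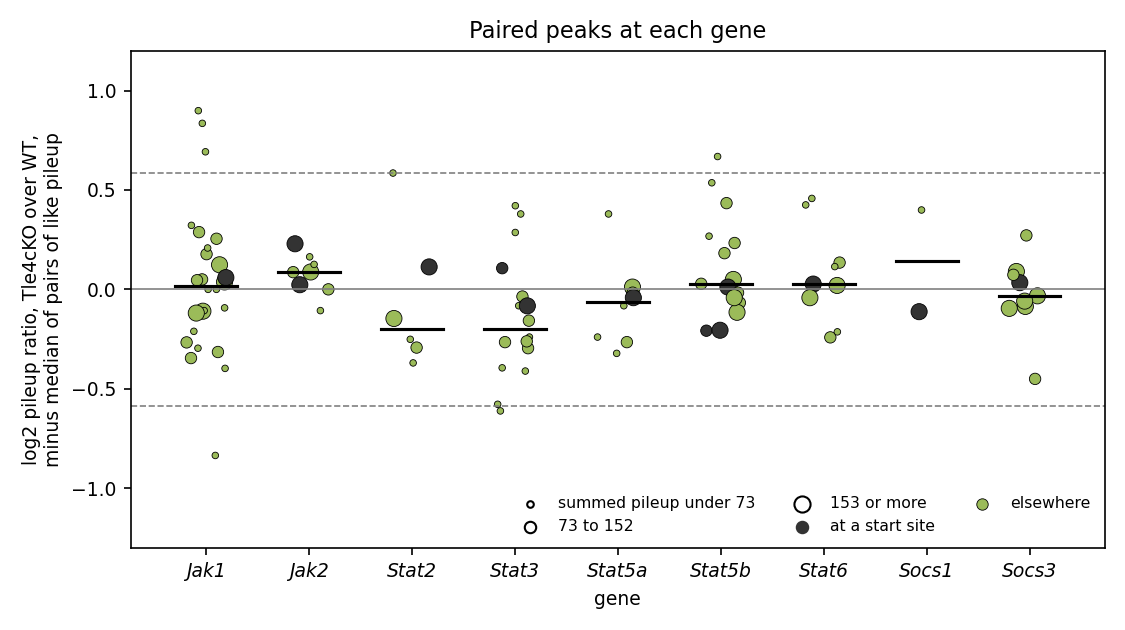
Relative log2 pileup ratio, Tle4cKO over WT minus the median of pairs of like pileup, for each paired peak by gene. Point size gives the summed pileup, dark points lie at a start site, bars are medians, dashed lines mark 1.5-fold, and pairs in the windows of neighbouring genes are drawn at each. Large points stay near 0, and the 7 points at or past the dashed lines are small.

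Jak1, the kinase shared by most cytokine receptors of macrophages, was the longest locus and held the most peaks, 33 in Tle4cKO and 35 in WT in a window around a gene of 113309 bp (mm10 chromosome 4, 101151974 to 101265282). Positions of pairs here and below are those of the Tle4cKO peak, and peaks inside a gene were not split into exons and introns. Besides the start site, its strongest pair lay near the 3′ end of the gene at 101154967 to 101156180 on chromosome 4, with pileups of 124 in Tle4cKO and 152 in WT. Pairs inside the gene had 88 and 109, 69 and 102, and 65 and 98, always with the lower value in Tle4cKO. The raw pileup was higher in Tle4cKO in 3 of 26 pairs, all inside the gene and all called higher (11.5%, against 3.55% of all pairs). The first, at 101167987 to 101168624, had 27 in Tle4cKO and 21 in WT, a ratio of 1.29 (95% interval 0.700 to 2.39). The second, at 101185196 to 101185426, had 29 and 24, a ratio of 1.21 (0.679 to 2.17). These intervals lay just above the median ratios of pairs of like pileup, 0.690 and 0.677. Both pairs had the largest relative ratios among the 92 pairs of the 9 genes, and the intervals make no allowance for that number. The third, at 101258799 to 101259442, 5973 bp inside the gene by its Tle4cKO summit, had 28 and 26, and its interval of 0.609 to 1.91 included the ratio of like pairs, 0.667. In these 3 pairs the summits were 356, 343 and 287 bp apart. The pair called lower lay outside the gene, upstream of the start, at 101273052 to 101273291, with 9 in Tle4cKO and 21 in WT. Its interval of 0.173 to 0.976 included the 0.765 of pairs of like pileup.

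At Jak1, 6 peaks were found in Tle4cKO alone (18.2%, against 23.5% of all Tle4cKO peaks), with pileups of 11, 11, 11, 12, 14 and 20. Another 8 were found in WT alone (22.9%, against 27.1% of all WT peaks), with pileups of 10, 12, 12, 14, 16, 17, 18 and 28. Some of these face each other across short gaps. A Tle4cKO-only peak of 14 lay 20 bp from a WT-only peak of 18, and a Tle4cKO-only peak of 11 lay 11 bp from a WT-only peak of 14. When peaks within 500 bp of the other list were counted as shared, the count of Tle4cKO-only minus that of WT-only at Jak1 changed sign, to 1 in place of -2.

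At Jak2, the kinase of the GM-CSF and interferon-gamma receptors, the strong peaks of the 5′ part were in both lists and the weak peaks of the 3′ part were mostly in the WT list alone. The gene (chromosome 19, 29251803 to 29313095) and its flanks held 12 Tle4cKO and 19 WT peaks. Of these, 3 of 12 were Tle4cKO-only (8.89% to 53.2%, against 23.5% of all Tle4cKO peaks). In WT, 11 of 19 were WT-only (57.9%, 36.3% to 76.9%, against 27.1% of all WT peaks). This was the highest WT-only share of the 9 genes. Up to the midpoint of the gene, upstream flank included, lay 8 Tle4cKO and 7 WT peaks. Beyond the midpoint lay 4 Tle4cKO and 12 WT peaks, and there 2 were Tle4cKO-only, with pileups of 9 and 10, and 10 were WT-only. The pileups of the 11 in WT alone were 8, 9, 10, 11, 13, 13, 13, 13, 15, 15 and 16. Among WT peaks of 16 or less, 11 of 13 at Jak2 were WT-only (84.6%, 57.8% to 95.7%), against 67.0% of 40902 such peaks in the whole list, a share within the interval. No WT peak above 16 at Jak2 was WT-only, of 6. In the paired peaks, the relative log2 ratio was above 0 in 6 of 8, against 47.4% of all pairs. Besides the start site, the pair in the upstream flank had pileups of 103 in Tle4cKO and 127 in WT, and the pair at 29270336 to 29271803 had 61 and 81.

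**Figure D3:**
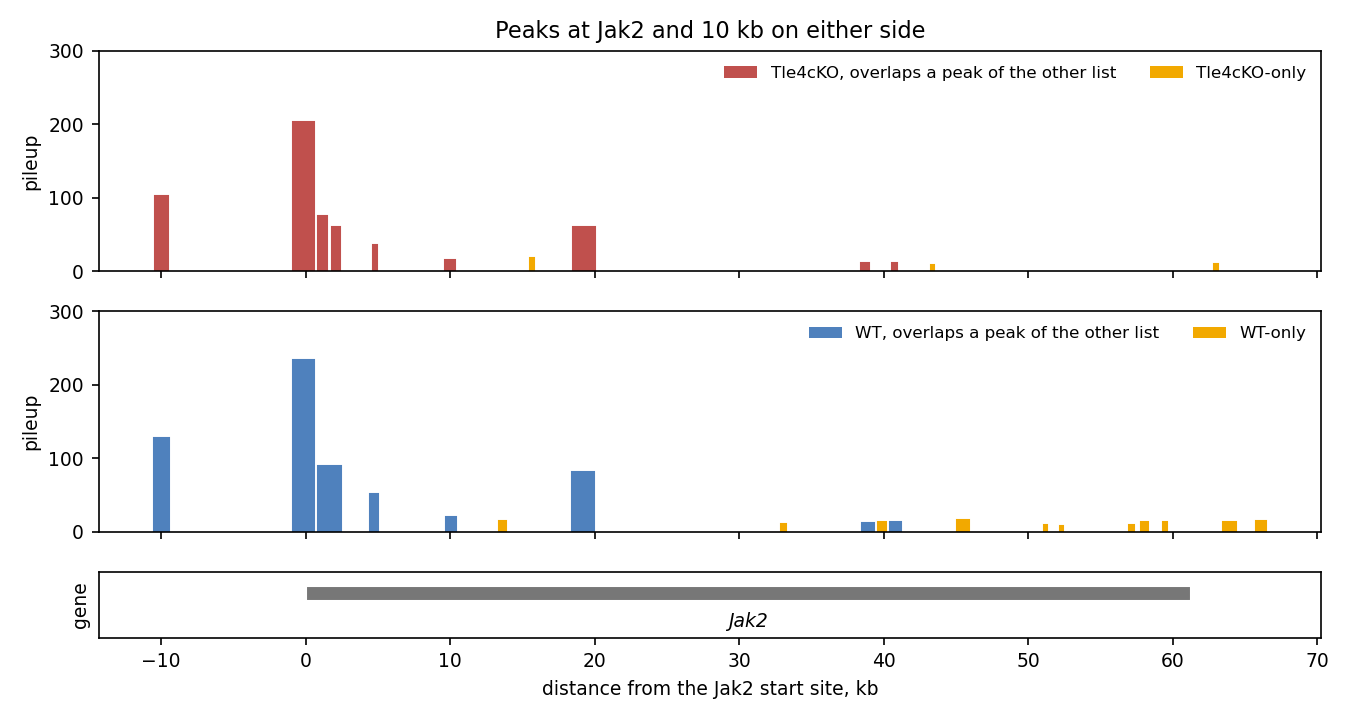
Peaks at Jak2 by distance from its start site in kb, with the pileup as height, Tle4cKO above WT, and list-only peaks in yellow. Every peak above 18 overlaps a peak of the other panel, and of the 12 WT peaks beyond the midpoint of the gene 10 are WT-only, none above 16.

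Stat5b (100780731 to 100859004), Stat5a (100859351 to 100885169) and Stat3 (100886806 to 100939594) lie side by side on chromosome 11, and their windows share peaks: 7 Tle4cKO and 7 WT peaks lie in the windows of both Stat5a and Stat3, and 5 and 4 in those of both Stat5b and Stat5a. The whole locus held 40 Tle4cKO peaks, of which 7 were Tle4cKO-only (17.5%, against 23.5% of all). It held 43 WT peaks, of which 10 were WT-only (23.3%, against 27.1% of all). Peaks of the same pileup classes would give 16.3% and 19.9%. Its 32 pairs had a median ratio of 0.704, against 0.741 over all pairs.

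Stat3 held the only WT-only peaks above the upper quartile of pileup among the 9 genes. The first, at 100935632 to 100935836, had a pileup of 73 in WT and lay 3800 bp inside the gene. The second, at 100936777 to 100937258, had a pileup of 67, exactly the upper quartile, which counts as above it, and lay 2344 bp inside the gene. The nearest Tle4cKO peaks were 1348 bp away, with a pileup of 39, and 846 bp away, with a pileup of 52. The list gives no Tle4cKO signal between its peaks, so the difference in signal at these places is not known. The WT partners of those nearest Tle4cKO peaks had pileups of 68 and 69, about as high as the WT-only peaks. Their pairs had ratios of 0.574 (0.377 to 0.863) and 0.754 (0.515 to 1.10). These intervals included the median ratios of pairs of like pileup, 0.688 and 0.700. The WT-only peaks were narrow, at 205 and 482 bp, and the 168 strong WT-only peaks of the whole list had a median width of 266 bp. The other WT-only peaks of the Stat3 window had pileups of 12, 13, 18 and 21, and its Tle4cKO-only peaks had 8, 14, 16 and 16. List-only peaks made up 20.0% of its Tle4cKO and 27.3% of its WT peaks, against 23.5% and 27.1% of all.

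On the relative scale the paired peaks at Stat3 were also low in Tle4cKO more often than not. All 16 had the lower raw pileup in Tle4cKO, as did 90.8% of all pairs. The relative log2 ratio was above 0 in 4 of 16, against 47.4% of all pairs. The median relative log2 ratio was -0.20, as it was at Stat2. The median raw ratio, which varies with peak height, was 0.620, the lowest raw value of the 9 genes. Inside the gene, the pair at 100927176 to 100927852 had 28 in Tle4cKO and 50 in WT, the pair at 100893304 to 100893972 had 37 and 64, and the pair at 100897145 to 100898084 had 49 and 78. The 4 pairs above 0 on the relative log2 scale had 24 in Tle4cKO and 26 in WT (0.42), 19 and 21 (0.38), 19 and 22 (0.29), and 52 and 69 (0.11). Upstream of the start, the pair at 100946908 to 100947701 had 16 and 31 and that at 100949242 to 100949599 had 15 and 33. The last had a ratio of 0.455 (0.229 to 0.861), and its interval included the 0.679 of pairs of like pileup. The pair called lower, at 100916533 to 100916732, had 9 in Tle4cKO and 15 in WT. The SD of the relative log2 ratio over all pairs was 0.40 in the lowest class of summed pileup, 0.37 in the second, 0.25 in the third and 0.14 in the highest, so single weak pairs carry little weight. The pair at the Stat3 start, with 191 and 237, was at -0.08.

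**Figure D4:**
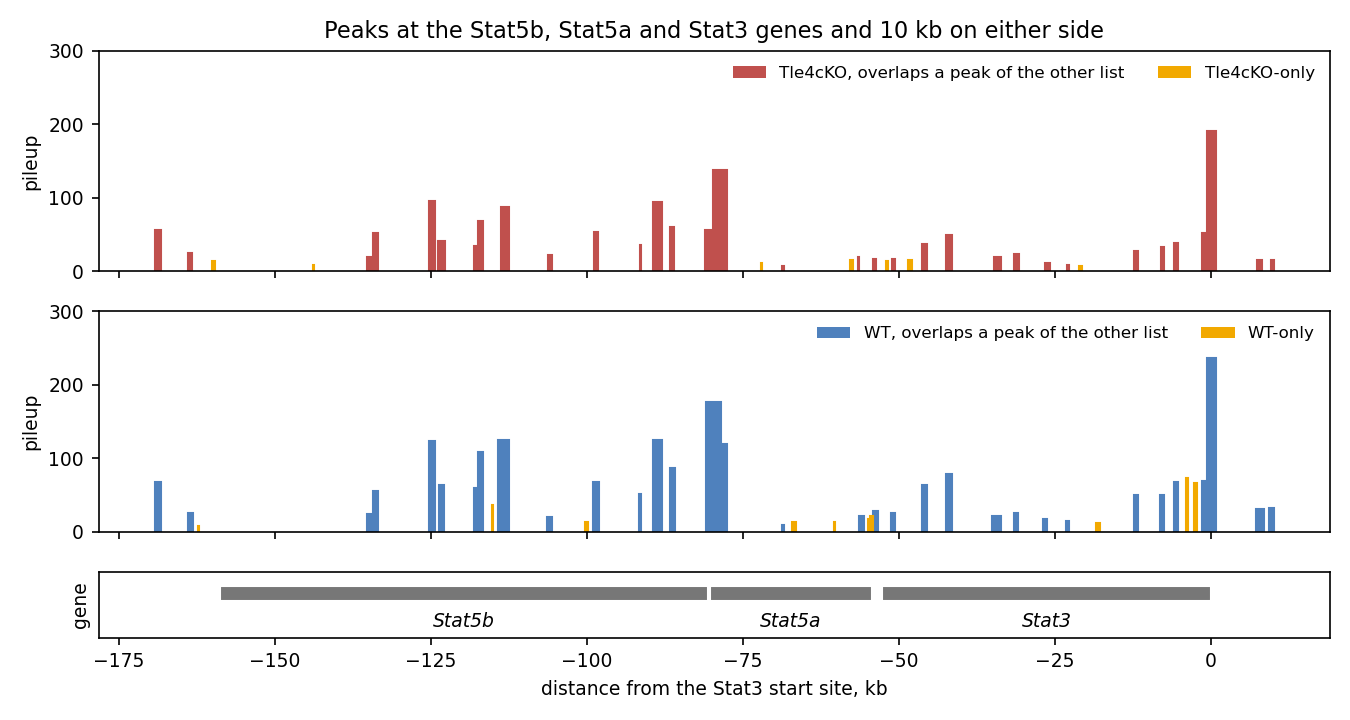
Peaks across Stat5b, Stat5a and Stat3 by distance from the Stat3 start site in kb, with the pileup as height, Tle4cKO above WT, and list-only peaks in yellow. The profile is shared, and the tallest yellow bars are the WT-only peaks of 73 and 67 just inside Stat3.

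Stat5a and Stat5b encode closely related factors that act below GM-CSF. The Stat5b window held 19 peaks in each list, of which 3 were Tle4cKO-only (9, 12 and 14) and 3 were WT-only (8, 13 and 36). Each share was 15.8%, against 23.5% of all Tle4cKO peaks and 27.1% of all WT peaks. The WT-only peak of 36, at 100824324 to 100824532, was 209 bp wide and lay 1189 bp from a Tle4cKO peak of 87. Over the 15 pairs of Stat5b the median relative log2 ratio was 0.03, with 9 of 15 above 0 (60.0%, against 47.4% of all pairs). The pairs with 52 in Tle4cKO and 56 in WT, 25 and 25, and 22 and 20 were past the lower threshold, all higher. Inner pairs had 96 in Tle4cKO and 123 in WT, 87 and 125, and 69 and 109. The last lies over its second annotated start and had a ratio of 0.633 (0.461 to 0.864), against 0.730 for pairs of like pileup. The pair called higher, at 100833269 to 100834022, had 22 in Tle4cKO and 20 in WT, with an interval of 0.573 to 2.12 that included the 0.692 of like pairs. The Stat5a window held 13 peaks in each list, 4 of them list-only on each side (30.8%, against 23.5% and 27.1% of all). These list-only peaks had pileups of 12 to 16 in Tle4cKO and 13 to 21 in WT. The 8 pairs in the Stat5a window all had the lower pileup in Tle4cKO, as did 90.8% of all pairs. Their median relative log2 ratio was -0.06.

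Stat6, the STAT of alternative activation by IL-4 (chromosome 10, 127642955 to 127660987), had 9 peaks in each list, all of them paired. Pileups ran from 21 to 151 in Tle4cKO and from 30 to 189 in WT. The highest, 151 and 189, lay in the flank at the neighbouring gene Nab2. Within Stat6 the pairs past the start had 22 and 30, 31 and 33, 21 and 36, and 33 and 36. The relative log2 ratio was above 0 in 6 of 9 pairs (66.7%, against 47.4% of all pairs), and the median was 0.03.

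Stat2, on the same chromosome at 128270498 to 128292853, had 6 peaks in Tle4cKO and 7 in WT, none of them list-only. The seventh WT peak, of 198, crosses the edge of the window, and the Tle4cKO peak of 160 that it overlaps begins outside. The pair of 103 in Tle4cKO and 148 in WT lay over Il23a, the gene for the p19 subunit of IL-23. The pair at 128272020 to 128272357 had 27 in each library and so sat exactly at 1.5-fold on the relative scale, with an interval of 0.564 to 1.77 that included the 0.667 of pairs of like pileup. The other pairs had 33 and 59, 15 and 28, and 13 and 21. The median relative log2 ratio over the 6 pairs was -0.20, with 2 of 6 above 0 (33.3%, against 47.4% of all pairs).

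Socs3, which blocks signalling by gp130-type receptors and is induced by STAT3 (chromosome 11, 117966079 to 117970336), had the most peaks per length of the 9 genes: 9 peaks in each list within 24258 bp, or 3.71 per 10 kb, all of them paired. Of these, 8 in Tle4cKO and all 9 in WT were at or above the upper quartile of their list. Downstream of the gene lay pairs of 155 in Tle4cKO and 200 in WT, 132 and 156, 100 and 134, and 69 and 101. Upstream lay pairs of 62 in Tle4cKO and 73 in WT, 57 and 77, 38 and 75, and 65 and 94. The pair of 38 and 75, at 117977717 to 117978386 on chromosome 11, had a ratio of 0.507 (0.334 to 0.758), whose interval included the 0.692 of pairs of like pileup. It passed the lower threshold and not 1.5-fold, and its summits were 345 bp apart. Over the 9 pairs the median relative log2 ratio was -0.03.

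Socs1, which blocks the interferon receptors by inhibiting JAKs (chromosome 16, 10783808 to 10785536), had few peaks: 4 in Tle4cKO and 2 in WT. The start-site peak covers the start and the 5′ part of the gene, which is 1729 bp long, and, with 169 and 214, was the only strong peak of the window. A weak pair near the downstream edge had 15 in Tle4cKO and 14 in WT. The 2 Tle4cKO-only peaks, of 13 and 11, lay 9200 and 8780 bp downstream of the start. With so few peaks their share of 50.0% had an interval of 15.0% to 85.0%, against 23.5% of all Tle4cKO peaks.

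The genes around these 9 in the pathway were read from 3 lists: 9 other genes of the JAK, STAT and SOCS families, 10 other inhibitors and 18 cytokine receptor genes. In the other family genes 7 of 69 Tle4cKO peaks were Tle4cKO-only (10.1%, against 23.5% of all) and 23 of 84 WT peaks were WT-only (27.4%, against 27.1% of all). Peaks of the same pileup classes would give 16.4% and 21.6%. There 2 genes had more Tle4cKO-only and 7 more WT-only peaks, and over all 35161 genes with a peak in the same kind of window the shares were 27.5% and 36.7%. Stat4, the STAT of IL-12 signalling, had 3 Tle4cKO-only and 10 WT-only peaks, none above 18. Socs6 had 0 and 4, and Cish, a feedback inhibitor induced by STAT5, 0 and 3. Of 60 pairs, 2 were called higher (3.33%, against 3.55% of all pairs), at Socs6 with 29 and 27 and at Socs4 with 31 and 29, and 1 was called lower (1.67%, against 3.82%), at Stat4 with 11 and 23.

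In the other inhibitors 23 of 142 Tle4cKO peaks were Tle4cKO-only (16.2%, against 23.5% of all) and 37 of 151 WT peaks were WT-only (24.5%, against 27.1% of all). Peaks of the same pileup classes would give 16.1% and 24.7%. Of the 10 genes, 3 leaned to Tle4cKO and 4 to WT, against 27.5% and 36.7% of all genes with a peak in such a window. Ptprc, which encodes the phosphatase CD45, had 5 Tle4cKO-only and 16 WT-only peaks, Ptpn2 3 and 6, and Sh2b3 1 and 3. The median relative log2 ratio of the 27 pairs at Ptprc was 0.14. Of 109 pairs 6 were called higher and 4 lower (5.50% and 3.67%, against 3.55% and 3.82% of all pairs). Pias1 held pairs called in both directions: higher with 27 in Tle4cKO and 25 in WT and with 45 and 43, and lower with 20 and 50.

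In the receptor genes 22 of 178 Tle4cKO peaks were Tle4cKO-only (12.4%, against 23.5% of all) and 28 of 176 WT peaks were WT-only (15.9%, against 27.1% of all). Peaks of the same pileup classes would give 10.9% and 12.7%. Of the 18 genes, 4 leaned to Tle4cKO and 8 to WT, against 27.5% and 36.7% of all genes with a peak in such a window. Lifr, the receptor of leukaemia inhibitory factor, had 0 Tle4cKO-only and 7 WT-only peaks, with pileups of 9 to 37, and 3 pairs called lower, of which the lowest on the relative scale had 8 in Tle4cKO and 21 in WT. Il6ra had 6 Tle4cKO-only peaks, none above 12, and 2 WT-only peaks, of 22 and 74. Ifnar2 and Il2rg each had 2 Tle4cKO-only and 0 WT-only peaks, and Il10rb had 0 Tle4cKO-only and 2 WT-only peaks. Of 145 pairs 1 was called higher (0.69%, against 3.55% of all pairs), at Csf3r with 28 and 27, and 6 lower (4.14%, against 3.82%). The lowest of these on the relative scale lay beside Ifngr1, the interferon-gamma receptor, with 15 in Tle4cKO and 48 in WT and a relative log2 ratio of -1.13. The same window held a Tle4cKO-only peak of 49, above the upper quartile of its list.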

How the data were processed

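The authors deposited 1 peak list per library, with the position, width, summit and pileup of each peak. Per the file headers, pileup is the deposited signal at each summit; its lowest value is 7 in both lists and all values are whole. The deposited width and summit position are in bp, per the file headers, and coordinates count from 1. The submitters' processing notes name MACS2 2.1.1, Bowtie2 2.2.5, cutadapt 1.14, HOMER 4.7.2 and the build mm10, without roles. The sources used here give no calling threshold, transposase shift, duplicate handling, read total or scaling. Depth is therefore unknown.

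Peaks were matched to RefSeq gene spans and starts of GRCm38.p6 with Python 3.11.15 and pandas 2.3.3. All 9 genes matched. Shared peaks overlap by at least 1 bp, as counted with bedtools 2.31.1. The log2 pileup ratio of each pair was taken relative to the median over pairs of like summed pileup (50 bins of equal count). Shares carry 95% Wilson intervals and ratios exact Clopper-Pearson intervals (scipy 1.17.1), approximate for a maximum. A start-site peak lies within 1000 bp of an annotated start. Matching, pairing and ratios were tested on simulated lists that kept the WT peak positions, so moved borders and split peaks were not tested.

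The genes, lists and thresholds were chosen with earlier results of these data known. All 9 genes are described. In the other lists, up to 3 genes were named by the difference in list-only peaks, plus ties among the receptor genes. Up to 3 were named by a pair past 1.5-fold. A gene of the family list is not reported here. Peaks of one locus are not replicates.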

Additional observations from a re-analysis of the deposited data

How the results depend on the processing

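The Tle4cKO-only share of the Tle4cKO peaks was 15.9% and the WT-only share of the WT peaks 23.4%. Restricted to peaks with a pileup of 15 or more, these shares were 4.49% and 11.9%, against 3.3% and 10.9% of all such peaks, since weak peaks are then left out. Among the 20000 strongest peaks of each list they were 0 and 0, of 21 and 25 peaks, against 0.065% of all such peaks in either list. With so few peaks a count of 0 says nothing particular about these genes. With the gene span alone, with 50 kb on either side, with an overlap of 50% of the shorter peak, or with peaks within 500 bp counted as shared, they stayed within the counting intervals, at 13.1% to 18.6% and 16.9% to 26.9%. The median relative log2 ratio stayed between -0.02 and 0.03 under 5 alternatives, and the percentile rank shift had a median of 0.07 percentile points. For single genes, 20 of 36 differences between Tle4cKO-only and WT-only peaks stayed within 1.5 times, many of them differences of 0 that stayed 0. Another 15 moved further, and Jak1 reversed, to 1, when peaks within 500 bp were counted as shared. At Jak2 the difference of -8 ran from -9 to -2, the last with a pileup of 15 or more. No paired analysis was possible because each genotype has 1 library. Unknown depth limits what can be read from weak peaks.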

Other observations

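Of 16 genes that STAT proteins are known to regulate, 2 had more Tle4cKO-only and 9 more WT-only peaks, and over all genes with a peak in such a window the shares were 27.5% and 36.7%. Together 5 of 117 Tle4cKO peaks were Tle4cKO-only (4.27%, 1.84% to 9.62%, against 23.5% of all) and 13 of 115 WT peaks were WT-only (11.3%, 6.73% to 18.4%, against 27.1% of all). The peaks at these genes were strong, with median pileups of 68 in Tle4cKO and 84 in WT, and peaks of the same pileup classes in the whole lists would give 5.67% and 6.68%. Their WT-only peaks had a median pileup of 36, against 12 over all WT-only peaks, and their Tle4cKO-only peaks a median of 18, against 10. The strongest lay at Mcl1, a survival gene of the BCL2 family, with 97 in WT, and at Bcl6, which encodes a transcriptional repressor, with 74 in WT. Sbno2, a corepressor gene induced by IL-10, held 2 WT-only peaks of 16 and 46 and 0 Tle4cKO-only peaks. Of 101 pairs 1 was called higher (0.99%, against 3.55% of all pairs), at Bcl3 with 32 in Tle4cKO and 31 in WT, and 1 lower (0.99%, against 3.82%), at Bcl6 with 16 and 41. The median relative log2 ratio was 0.03. Fcgr1, Retnla, Cebpd and Junb had no list-only peak in either library.

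At Il4ra, the receptor gene that signals to STAT6, each list held a strong peak that overlapped no peak of the other list. This gene was chosen after its values were seen. A Tle4cKO-only peak of 52 lay at 125579812 to 125580035 on chromosome 7, and a WT-only peak of 85 lay at 125553104 to 125553306. Of all peaks in the highest class of pileup, 0.313% in Tle4cKO and 0.518% in WT were in that list alone. The lists give no signal between their peaks, so the difference in signal at these places is not known. The 10 pairs at Il4ra had a median relative log2 ratio of 0.07.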
